A study of Mus musculus with 4 samples.

Results

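B cell identity genes are described here in mouse lung as 9 of the 23282 gene rows that were measured: Ms4a1, Cd79a, Cd79b, Cr2, Fcer2a, Pax5, Blk, Cd22 and Fcrla. They were taken by symbol, and the set was chosen with earlier results of these data known. Lung RNA came from male CDF1 mice in 4 groups that crossed treadmill exercise (E) with tumor (T), and each group is represented by 1 library. E(-)T(-) mice, whose sample is called control lung here, had neither exercise nor tumor. E(+)T(-) mice exercised (exercise lung), E(-)T(+) mice carried a tumor without exercise (tumor lung), and E(+)T(+) mice had both (tumor-exercise lung). Tumor groups had received cells of CT26, a murine colorectal carcinoma line, through a tail vein. Groups held 10 mice. The methods give sampling at 19 days after injection and an age of 4 weeks at purchase, and the labels give postnatal day 28, which may therefore be an earlier age than that at sampling. For calf muscle the study describes a single representative animal per group and calls the lung analysis similar, without stating whether a lung library came from 1 mouse or from a pool. There were no replicates, so no difference between groups has a replicate check, and the intervals given are for counting error alone.

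B cells recognise antigen with a membrane immunoglobulin that signals through its partners Cd79a and Cd79b. Blk and other kinases act downstream, Cr2 lowers the threshold of the receptor and Cd22 raises it, while Pax5 holds the B cell programme in place. The lung holds circulating B cells and, after infection or irritation, lymphoid aggregates with follicles.

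Between 9354519 and 13368058 reads were recovered per library, and 3 reads, the floor used for a gene without reads, correspond to 0.224 to 0.321 reads for every 1000000 recovered (CPM). Hemoglobin genes took unequal shares of the reads, namely 14.3% in control lung, 14.2% in exercise lung, 1.43% in tumor lung and 31.4% in tumor-exercise lung. Markers of lung tissue such as Sftpc and Scgb1a1 were abundant in all 4 libraries, yet the summed level of 10 such markers was 58800, 67400, 14500 and 45300 CPM in the same order. The exercise lung library, labelled as free of tumor, held 141 reads of Crabp1, 46 of Krt20, 29 of Osr2 and 12 of Etv4. These genes had 0 reads in control lung and 10478, 2696, 1673 and 681 in tumor lung. Scaled to library size, the level in exercise lung was a median 1.44% of that in tumor lung, a share that for the 9 B cell genes comes to 0.55 reads.

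Promoters are shown for Cd79a and Cd22, which fell to 0 and 1 reads in one library and returned in another, and for Cr2, which ran the other way in both exercise comparisons. They are RefSeq sequences of build GRCm38.p6 from 250 bases before to 50 after an annotated start, and 6 of the 9 genes had an entry. Capitals mark matches to the EBF site core TCCCNNGGG in Cd22 and to the ETS core GAGGAA, here on the reverse strand, in Cd79a. Cd79a is at chr7:24897247-24897546 on the plus strand, Cd22 at chr7:30878979-30879278 and Cr2 at chr1:195176670-195176969, both on the minus strand.
Cd79a: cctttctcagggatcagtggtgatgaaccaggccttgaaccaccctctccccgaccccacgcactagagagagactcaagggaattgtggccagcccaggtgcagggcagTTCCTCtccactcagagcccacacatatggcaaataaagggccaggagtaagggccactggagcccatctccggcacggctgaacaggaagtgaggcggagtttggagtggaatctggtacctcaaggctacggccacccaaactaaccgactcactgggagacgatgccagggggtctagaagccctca
Cd22: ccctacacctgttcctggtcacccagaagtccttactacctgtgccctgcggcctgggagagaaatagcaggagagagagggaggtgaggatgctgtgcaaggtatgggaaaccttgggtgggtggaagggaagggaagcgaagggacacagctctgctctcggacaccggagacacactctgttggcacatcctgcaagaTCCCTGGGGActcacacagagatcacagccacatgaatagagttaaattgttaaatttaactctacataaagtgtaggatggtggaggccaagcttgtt
Cr2: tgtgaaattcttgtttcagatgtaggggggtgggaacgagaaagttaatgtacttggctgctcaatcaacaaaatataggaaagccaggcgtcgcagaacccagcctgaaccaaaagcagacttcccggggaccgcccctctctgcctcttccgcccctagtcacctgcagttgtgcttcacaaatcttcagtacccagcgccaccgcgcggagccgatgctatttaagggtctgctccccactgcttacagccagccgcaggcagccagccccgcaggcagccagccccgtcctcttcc

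With the start base at 0, the Cd22 match covered positions -49 to -40 and was read on both strands, 1 base apart, as overlapping matches. The Cd79a match lay at -140 to -135. Fcrla held the same ETS core at -37 to -32. Over all 32851 promoters of the table, 6.56% held the EBF core and 28.3% the ETS core on either strand. The octamer ATGCAAAT, found in 1.74% of all promoters, was in none of the 8 promoters of these genes, and the E-box CANNTG, found in 72.3%, was in all 8. A match of letters is a description of the window only.

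The receptor partners Cd79a and Cd79b were well read in 3 libraries. Cd79a, on chromosome 7 at 24897381-24902197 (GRCm38), had deposited log2 values of 6.93 in control lung, 6.59 in exercise lung, 0.09 in tumor lung and 5.98 in tumor-exercise lung, from 142, 104, 0 and 53 reads. Cd79b, on chromosome 11 at 106311341-106314762, had log2 values of 8.06, 7.82, 3.72 and 6.29 from 312, 245, 11 and 66 reads. Blk, a Src family kinase of the receptor on chromosome 14 at 63372836-63417037, had log2 values of 5.56, 4.84, 0.08 and 4.68 from 54, 30, 0 and 21 reads. In all 3 genes tumor lung was the lowest library by far, and tumor-exercise lung lay between it and the libraries without tumor. A gene with no read has a deposited value slightly above 0 in some libraries because of the adjustment between libraries.

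Surface receptors followed the same order with one exception. Ms4a1, which encodes CD20 and lies on chromosome 19 at 11249675-11266241, had log2 values of 7.79, 7.20, 0.09 and 4.13 from 259, 159, 0 and 14 reads. Cd22, a sialic acid binding receptor that restrains signalling, on chromosome 7 at 30865402-30880342, had log2 values of 7.58, 6.97, 1.11 and 5.95 from 224, 135, 1 and 52 reads. Fcer2a, the low-affinity IgE receptor CD23 of mature follicular B cells, on chromosome 8 at 3681737-3694175, had log2 values of 5.71, 5.20, 1.11 and 4.31 from 60, 39, 1 and 16 reads. The 3 genes were highest in control lung and lowest in tumor lung, and Ms4a1 in tumor-exercise lung stayed further below the libraries without tumor than the other 2 did. Cr2, the complement receptor CD21 of B cells and follicular dendritic cells, on chromosome 1 at 195136811-195176716, was the exception, with log2 values of 7.00, 8.23, 4.30 and 2.54 from 149, 325, 17 and 4 reads. It was highest in exercise lung, and its lowest library was tumor-exercise lung and not tumor lung.

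Fcrla, an intracellular Fc receptor-like protein of B cells on chromosome 1 at 170917576-170927583, had log2 values of 5.82, 6.03, 1.71 and 3.92 from 65, 70, 2 and 12 reads. Pax5, the transcription factor that commits cells to the B lineage, on chromosome 4 at 44524757-44710487, had 4 reads in exercise lung and 0 in the other 3 libraries. Its mean normalized count of 0.95 was under the filter of 4 that the other 8 genes passed, so Pax5 enters no count of genes past the 2-fold limit in a comparison below, and its 4 reads are part of the sums over the 9 genes. Ms4a1, Pax5, Cd22 and Fcrla overlap other annotated genes, and strand use was not stated, so reads of such pairs cannot be told apart.

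**Figure D1:**
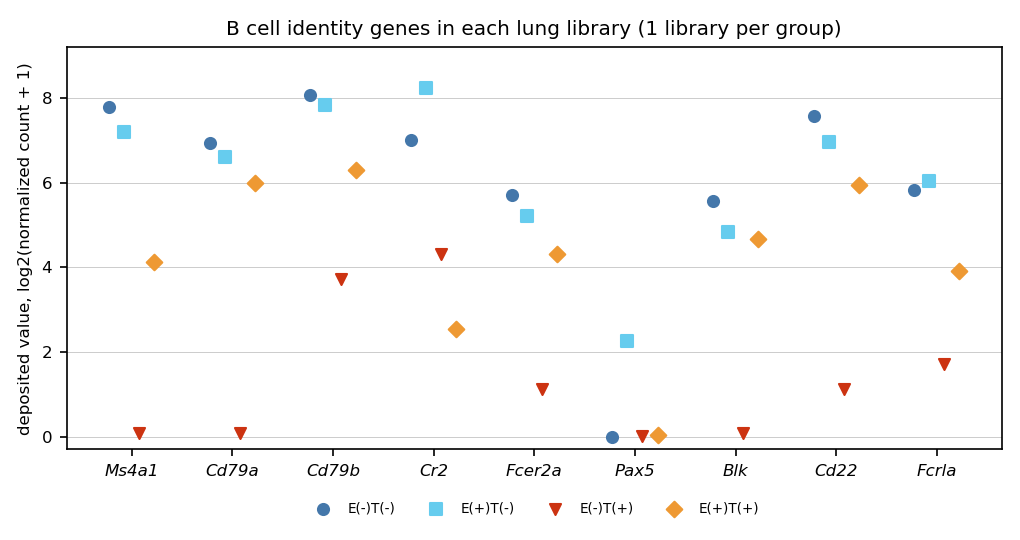
Deposited log2(normalized count + 1) values, on the vertical axis, of the 9 B cell identity genes in each of the 4 lung libraries, 1 point per library. Tumor lung was the lowest for 7 of the 8 genes that passed the filter, and Cr2 was lowest in tumor-exercise lung.

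The first comparison asked what exercise changed in lungs without tumor. In exercise lung over control lung, 1 of 8 genes was 2-fold or more higher, against 5.28% of the 15164 rows that passed the filter, and 0 were 2-fold or more lower, against 4.7% of rows. The gene past the limit was Cr2, 2.35-fold higher, with a log2 difference of 1.23 (exact 95% interval of the read ratio 0.95 to 1.53). Fcrla was also above 0, at 0.21 (-0.29 to 0.73). The other 6 were below 0 and inside the limit. Blk was at -0.72 (-1.43 to -0.07), Cd22 at -0.62 (-0.94 to -0.30) and Ms4a1 at -0.59 (-0.89 to -0.30), with intervals that exclude 0. Fcer2a at -0.50 (-1.13 to 0.10), Cd79a at -0.34 (-0.72 to 0.04) and Cd79b at -0.24 (-0.48 to 0.01) had intervals that reach 0. The median of the 8 genes was -0.42, beside 0.00 over all rows. Cr2 was thus the only one of the 8 to pass 2-fold in this pair of libraries, with 325 reads against 149. In the same pair 7 of 9 neutrophil genes were 2-fold or more higher, with a median of 1.61 and a summed level of 976 against 335 CPM, and their part was not tested.

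The comparison of tumor with no tumor in resting mice had the largest median difference of the 5, and the largest fall for each of the 8 genes other than Cr2. In tumor lung over control lung, 8 of 8 genes were 2-fold or more lower, against 25.7% of all rows, and the median was -5.03, or -4.46 with the 3 genes without reads set at the floor of 3 reads, beside -0.03 over all rows. Ms4a1 had a log2 difference of -7.70, and its 0 reads make it at least 67.0-fold lower against the floor of 3 reads. Cd79a, at -6.84, was at least 36.7-fold lower, and Blk, at -5.48, at least 14.0-fold lower. Counting error leaves room for smaller folds than these, since the intervals of the 3 genes end at -5.76, -4.88 and -3.46. Genes with remaining reads fell by less or with wide intervals. Cd22 was at -6.47 (-12.75 to -4.95) and Fcer2a at -4.59 (-10.87 to -3.01), each on 1 read in tumor lung. Cd79b was at -4.34 (-5.48 to -3.60) and Fcrla at -4.11 (-7.73 to -2.74). Cr2 had the smallest fall of the 8, at -2.70 (-3.58 to -2.04). In bulk tissue, fewer B cells and less RNA per B cell cannot be told apart. All 10 lung tissue markers were also 2-fold or more lower in tumor lung, with a median of -2.49, as were 10 of 12 erythroid genes, with a median of -3.11, while Crabp1, Krt20, Osr2 and Etv4 had 0 reads in control lung and 681 to 10478 in tumor lung. Epcam, the other gene of their list of 5, was lower, with 767 reads in control lung and 176 in tumor lung. Neutrophil genes went the other way, with 7 of 9 being 2-fold or more higher (median 1.52), against 20.6% of all rows higher. Of 6 genes of all leukocytes, 3 were 2-fold or more lower (median -0.88). The part of all these genes in the fall of the B cell genes was not tested.

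Exercise in tumor-bearing mice was compared as tumor-exercise lung over tumor lung, which shares the low library with the preceding pair. Here 7 of 8 genes were 2-fold or more higher, against 24.3% of rows, and 1 was 2-fold or more lower, against 17.7%. The median was 3.62, or 2.74 with the 3 genes that had no read in tumor lung set at the floor, beside 0.01 over all rows. Cd79a had a log2 difference of 5.89 and was at least 18.8-fold higher against the floor. Blk, at 4.60, was at least 7.47-fold higher, and Ms4a1, at 4.04, at least 4.98-fold higher. These 3 came up from 0 reads to 53, 21 and 14, and counting error leaves room for smaller folds, since their intervals start at 3.89, 2.47 and 1.82. Cd22 was at 4.84 (3.25 to 11.12), Fcer2a at 3.19 (1.41 to 9.48), Cd79b at 2.58 (1.75 to 3.75) and Fcrla at 2.22 (0.51 to 5.88). Cr2 moved against the rest, at -1.76 (-4.02 to -0.38), from 17 reads to 4. Neutrophil genes were higher as well (9 of 9 read, median 4.18), as were erythroid (11 of 12, 5.12) and lung tissue genes (9 of 10, 2.55). Crabp1, Krt20, Osr2 and Etv4 were lower in this pair. Their reads in tumor-exercise lung were 382 for Crabp1, 476 for Krt20, 67 for Osr2 and 87 for Etv4, which is 3.89% to 18.8% of their level in tumor lung. Epcam, the other gene of their list of 5, was higher, with 176 reads in tumor lung and 553 in tumor-exercise lung. The part of these cell markers in the rise of the B cell genes was not tested. The summed neutrophil list was at 873 CPM in tumor lung and 12300 in tumor-exercise lung. With libraries scaled by their totals the median of all rows moved to -0.59, and 31.6% of the rows past the limit were higher in place of 57.8%. The B cell genes had the same counts of 7 higher and 1 lower under that scaling, against 16.4% of all rows higher and 35.4% lower.

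The tumor comparison among exercising mice was tumor-exercise lung over exercise lung. Of the 8 genes, 5 were 2-fold or more lower, against 13.0% of rows, with a median of -1.27 beside 0.00 over all rows. Cr2 fell most, at -5.69 (-7.88 to -4.63), which is 51.7-fold lower. Ms4a1 was at -3.07 (-4.06 to -2.37), Fcrla at -2.11 (-3.22 to -1.30), Cd79b at -1.53 (-1.96 to -1.15) and Cd22 at -1.02 (-1.52 to -0.56). The receptor partner Cd79a, at -0.62 (-1.13 to -0.13), Fcer2a, at -0.90 (-1.88 to -0.06), and the kinase Blk, at -0.16 (-1.04 to 0.69), were inside the limit. The 8 genes therefore did not fall by a common amount, with Blk near its level in exercise lung and Cr2 far below it. Neutrophil genes (9 of 9, median 4.24) and erythroid genes (11 of 12, median 1.71) were 2-fold or more higher in this pair, against 14.9% of all rows. Of 9 natural killer cell genes, 7 were 2-fold or more lower and 1 higher (median -1.46), against 13.0% of all rows lower. The part of these lists was not tested. Scaled by totals, 28.2% of rows past the limit were higher in place of 53.5%, with the median of all rows at -0.41, and 7 of the 8 genes were past the limit in place of 5, against 24.2% of all rows lower.

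When the library with both exercise and tumor was set against the one with neither, 6 of 8 genes were 2-fold or more lower, against 14.4% of rows, with a median of -1.70 beside -0.02. Cr2 was at -4.46 (-6.65 to -3.37), Ms4a1 at -3.66 (-4.64 to -2.98), Fcrla at -1.90 (-3.00 to -1.08), Cd79b at -1.77 (-2.19 to -1.39), Cd22 at -1.63 (-2.11 to -1.21) and Fcer2a at -1.40 (-2.34 to -0.63). Cd79a, at -0.95 (-1.45 to -0.50), and Blk, at -0.88 (-1.70 to -0.15), were lower by less than 2-fold. All 8 intervals lay below 0, so these genes were lower in tumor-exercise lung than in control lung beyond counting error. In the same pair 9 of 9 neutrophil genes were 2-fold or more higher (median 5.91, from 335 to 12300 CPM), as were 11 of 12 erythroid genes (median 1.76) and 3 of 6 genes of all leukocytes (median 1.03), against 14.8% of all rows higher, and their part was not tested. Scaled by totals, 24.3% of rows past the limit were higher in place of 50.7%, with the median of all rows at -0.52, and 8 of 8 genes were past the limit, against 28.6% of all rows lower. Totals without hemoglobin genes gave 40.1% and -0.20, with 8 of 8 genes past the limit against 18.4% of all rows lower.

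**Figure D2:**
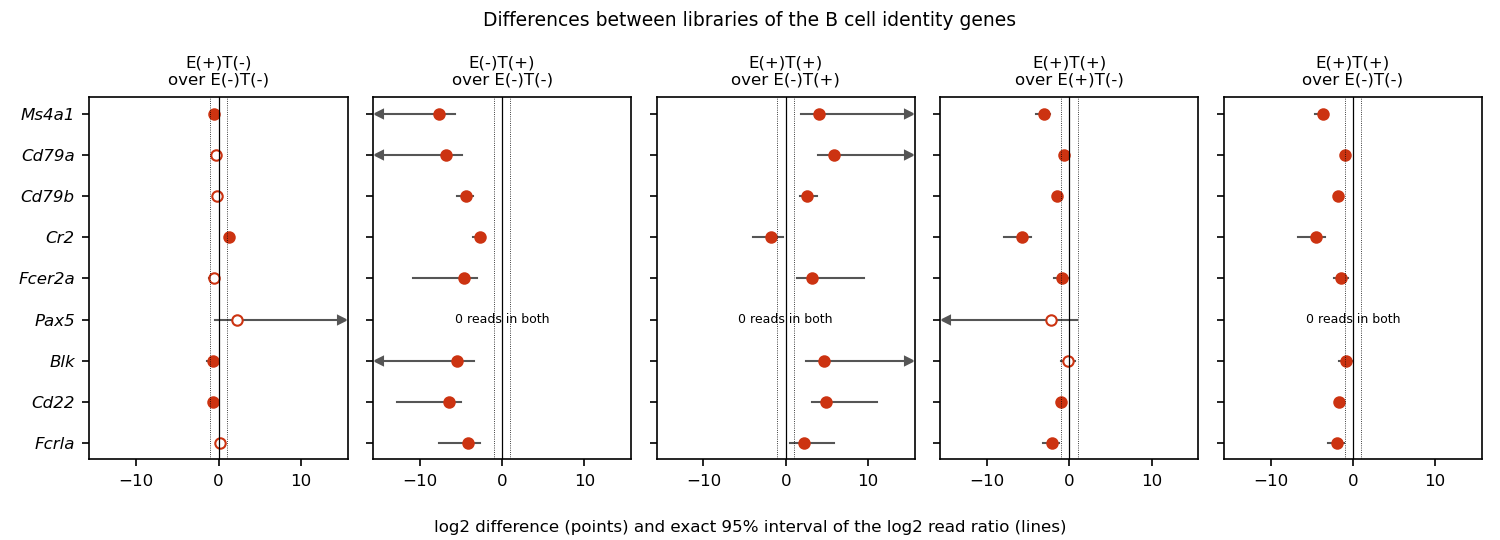
Log2 differences of the 9 genes in the 5 comparisons, 1 panel each, with points for the difference of deposited values, lines for the exact 95% interval of the read ratio, arrows for intervals that run beyond the axis, and filled points where the interval excludes 0. Dotted lines mark the 2-fold limit. All 8 genes past the filter lie left of it in tumor lung over control lung, and Cr2 alone lies on the left in tumor-exercise lung over tumor lung.

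Reads of the 9 genes together made up 97.2 CPM in control lung (exact 95% interval 91.9 to 103), 86.9 in exercise lung (81.9 to 92.2), 3.42 in tumor lung (2.34 to 4.83) and 17.8 in tumor-exercise lung (15.6 to 20.2). The sums were 1265, 1111, 32 and 238 reads. The intervals of control lung and exercise lung overlap slightly, and those of tumor lung and tumor-exercise lung are apart from them and from each other.

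The make-up of these reads differed between libraries, a measure that does not depend on scaling. Cr2 took 11.8% of the reads of the 9 genes in control lung, 29.3% in exercise lung, 53.1% in tumor lung and 1.68% in tumor-exercise lung, where the 53.1% is 17 of 32 reads (34.7 to 70.9). The odds of a read being Cr2 rose 3.1-fold from control lung to exercise lung (2.49 to 3.86) and were 0.128 times as high in tumor-exercise lung as in control lung (0.0341 to 0.34). The Ms4a1 share was 20.5%, 14.3%, 0% and 5.88%. The Cd79a share was 11.2%, 9.36%, 0% and 22.3%. The exact 95% interval of 0 of 32 reads in tumor lung reaches up to 10.9%. Relative to the other genes of the group, Cd79a thus had more reads in tumor-exercise lung than in control lung, with an odds ratio of 2.26 (1.56 to 3.25), and Ms4a1 fewer, with 0.243 (0.128 to 0.425). Cd79b held 24.7%, 22.1%, 34.4% and 27.7%, and its odds ratio between tumor-exercise lung and control lung of 1.17 (0.844 to 1.61) reaches 1.

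**Figure D3:**
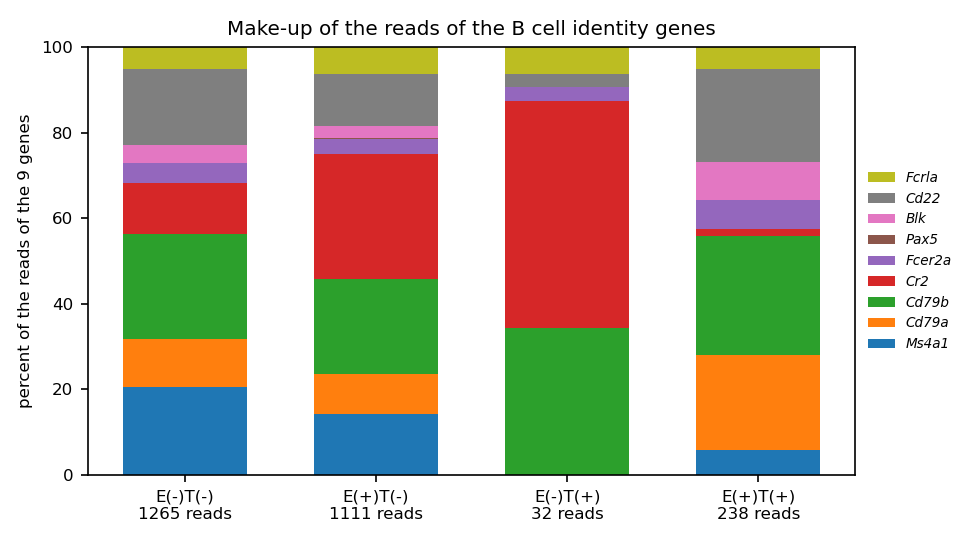
Share of each gene in the reads of the 9 B cell identity genes, in percent, for each library, with the number of reads under each bar. Cr2 takes 53.1% of the 32 reads of tumor lung and 1.68% of the 238 reads of tumor-exercise lung.

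Ratios within a library set the B cell genes beside other cells. Per read of 15 T cell genes (such as Cd3d and Lck), the 9 genes had 0.972 reads in control lung (0.899 to 1.05), 1.08 in exercise lung (0.996 to 1.18), 0.113 in tumor lung (0.0761 to 0.164) and 0.287 in tumor-exercise lung (0.248 to 0.332). Per read of Ptprc, the CD45 gene of all leukocytes, they had 0.914, 0.824, 0.0889 and 0.128. Per read of Pecam1, an endothelial gene, they had 0.17, 0.128, 0.0367 and 0.0373. Against each of these denominators, the B cell genes were lower in both tumor libraries than in both libraries without tumor. Between tumor lung and tumor-exercise lung, the intervals were apart per T cell read only. They overlapped per Ptprc read (0.0599 to 0.128 and 0.112 to 0.147) and per Pecam1 read (0.0249 to 0.0521 and 0.0327 to 0.0425). Against Ptprc and Pecam1, the B cell genes thus showed no rise beyond counting error in tumor-exercise lung over tumor lung. The 15 T cell genes fell too, with 12 of them 2-fold or more lower in tumor lung over control lung and a median of -2.34, against 25.7% of all rows, and 12 were higher in tumor-exercise lung over tumor lung, with a median of 1.81, against 24.3% of all rows. Their summed level was 99.9, 80.1, 30.1 and 62.0 CPM in control lung, exercise lung, tumor lung and tumor-exercise lung.

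Single gene ratios to Cd79a showed where members and their neighbours diverged. Ms4a1 had 1.82 reads per read of Cd79a in control lung (1.48 to 2.25), 1.53 in exercise lung (1.19 to 1.98) and 0.264 in tumor-exercise lung (0.135 to 0.483). Cr2 had 1.05, 3.12 and 0.0755 in these libraries. Blk, by contrast, had 0.38 (0.273 to 0.524), 0.288 (0.185 to 0.437) and 0.396 (0.227 to 0.668), with overlapping intervals. Cd79b had 2.2 (1.8 to 2.7), 2.36 (1.87 to 2.99) and 1.25 (0.854 to 1.82), and Fcrla 0.458 (0.336 to 0.618), 0.673 (0.49 to 0.92) and 0.226 (0.11 to 0.429). Blk thus kept its ratio to Cd79a within counting error, Ms4a1 and Cr2 were lower against it in tumor-exercise lung than in both libraries without tumor, with intervals apart, and Cd79b and Fcrla were lower there than in exercise lung, with intervals apart. Cd22 had 1.58 (1.27 to 1.96), 1.3 (0.998 to 1.69) and 0.981 (0.656 to 1.47), and Fcer2a 0.423 (0.307 to 0.575), 0.375 (0.253 to 0.547) and 0.302 (0.161 to 0.536), each with intervals that overlap. No ratio to Cd79a can be formed in tumor lung, where it had 0 reads.

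**Figure D4:**
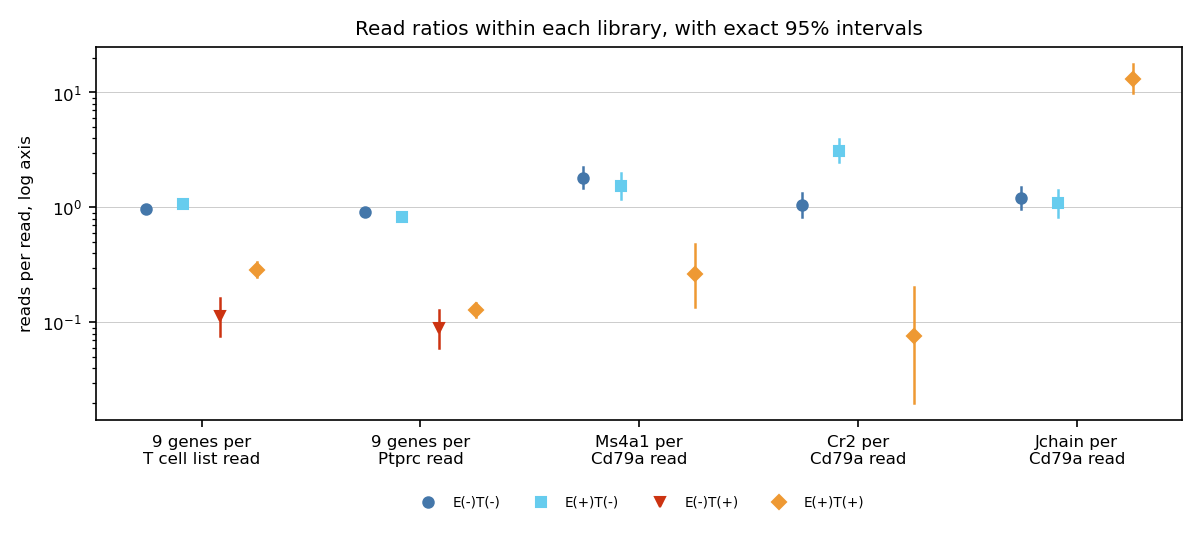
Read ratios within each library on a log axis, with exact 95% intervals as vertical lines. The 9 genes per T cell read and per Ptprc read are lowest in tumor lung, and Jchain per Cd79a read is 13.1 in tumor-exercise lung against 1.21 in control lung. Per Ptprc read, the intervals of tumor lung and tumor-exercise lung overlap.

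Other genes of B cells were read from lists of the same pathway. Their counts stand against 25.7% of all rows lower and 20.6% higher in tumor lung over control lung, and against 24.3% higher and 17.7% lower in tumor-exercise lung over tumor lung. Of 15 B cell receptor signalling genes past the filter, 8 were 2-fold or more lower and 1 higher in tumor lung over control lung (median -1.41), and 10 were higher in tumor-exercise lung over tumor lung (median 1.92). The adaptor Bank1, with 132, 179, 0 and 68 reads in control lung, exercise lung, tumor lung and tumor-exercise lung, had no read in tumor lung, like Cd79a. Rasgrp3, a Ras activator, had 903, 1303, 39 and 264 reads. Of 10 inhibitory receptor genes, 5 were lower and 2 higher in tumor lung over control lung (median -0.97), and 6 were higher in tumor-exercise lung over tumor lung (median 1.24). Among them Btla, an inhibitory receptor of lymphocytes, had 71, 108, 1 and 36 reads. The 2 that were higher in tumor lung were Fcgr2b, with 96, 66, 227 and 178 reads, and Pirb, with 120, 144, 239 and 494. Pirb had a log2 difference of 2.49 in tumor-exercise lung over control lung.

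Of 14 transcription factors of B cells, 10 were 2-fold or more lower in tumor lung over control lung (median -1.39) and 9 higher in tumor-exercise lung over tumor lung (median 1.38). Ebf1, which acts upstream of Pax5, had 273, 180, 27 and 117 reads, Pou2af1, the octamer co-activator, 144, 271, 23 and 123, and Spib, an ETS factor, 99, 146, 2 and 37. All 3 were lowest in tumor lung, as 7 of the 8 identity genes were. Spi1 and Tcf3 of the same list were not lowest there, with 239, 265, 251 and 888 reads for Spi1 and 448, 419, 557 and 309 for Tcf3. Spi1 had a log2 difference of 0.44 in tumor lung over control lung and 2.35 in tumor-exercise lung over control lung. For Tcf3 these differences were 0.68 and -0.08. Of 17 genes of follicular homing and survival, 15 were 2-fold or more lower and 1 higher in tumor lung over control lung (median -2.34), and 15 were higher in tumor-exercise lung over tumor lung (median 2.41). The IgM receptor Fcmr had 185, 112, 1 and 33 reads, the chemokine receptor Ccr6 185, 128, 2 and 39, and the BAFF receptor Tnfrsf13c 150, 123, 5 and 34. The gene of this list that was higher in tumor lung was Cxcl13, the chemokine that draws B cells into follicles, with 113, 49, 480 and 639 reads. Its log2 difference was 2.44 in tumor lung over control lung and 2.95 in tumor-exercise lung over control lung, opposite to that of the B cell genes in the same pairs.

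In the other 2 pairs with tumor-exercise lung the medians of these 4 lists lay nearer to 0 than that of the identity genes, whose median log2 difference was -1.70 in tumor-exercise lung over control lung and -1.27 over exercise lung. Over control lung, where 14.8% of all rows were higher and 14.4% lower, the medians were 0.28 for signalling (2 higher, 2 lower), 0.12 for inhibitory receptors (2 higher, none lower), -0.21 for transcription factors (1 higher, 1 lower) and -0.18 for follicular homing and survival (3 higher, 4 lower). Over exercise lung, where 14.9% of all rows were higher and 13.0% lower, they were 0.23 (2 higher, 3 lower), 0.45 (4 higher, 1 lower), -0.46 (1 higher, 3 lower) and -0.15 (4 higher, 5 lower) in the same order. These values also moved with the scaling. With libraries scaled by their totals, which put the median of all rows at -0.59 in tumor-exercise lung over tumor lung, the list medians in that pair were 1.31, 0.63, 0.77 and 1.81 in the same order, that of the plasma cell list below was 0.50, and that of the identity genes was 3.26 in place of 3.62. In tumor-exercise lung over control lung the same scaling put the median of all rows at -0.52 and turned the signs of the first 2 lists, with medians of -0.20, -0.37, -0.69 and -0.67, against -2.19 for the identity genes. Over exercise lung it put all rows at -0.41 and the lists at -0.18, 0.04, -0.87 and -0.55, against -1.68 for the identity genes.

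Plasma cells, which lose Ms4a1, Cr2 and Pax5 and secrete antibody, are read from another list. Of 10 plasma cell genes, with the same shares of all rows beside them in the first 2 pairs, 3 were 2-fold or more lower and 1 higher in tumor lung over control lung (median -0.82), 6 were higher and 2 lower in tumor-exercise lung over tumor lung (median 1.10), and 3 were higher in tumor-exercise lung over control lung (median 0.47, and -0.03 with libraries scaled by their totals), against 14.8% of all rows higher in that pair. Jchain, which links antibody units, had 172, 113, 47 and 695 reads, a log2 difference of 2.47 (2.23 to 2.72) in tumor-exercise lung over control lung. Mzb1, an endoplasmic reticulum protein of antibody-secreting cells, had 87, 96, 23 and 244 reads, a difference of 1.93 (1.59 to 2.32). Per read of Cd79a, Jchain had 1.21 reads in control lung (0.964 to 1.52), 1.09 in exercise lung (0.825 to 1.43) and 13.1 in tumor-exercise lung (9.91 to 17.7). Other genes of the list moved less or the other way in tumor-exercise over control lung, with log2 differences of 0.17 for Prdm1, 0.02 for Fkbp11, -0.50 for Xbp1 and -0.86 for Tnfrsf17, the last of these on 11 and 4 reads. Immunoglobulin heavy and light chain genes were not analysed here.

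Class II antigen presentation genes, which B cells share with dendritic cells and macrophages, had 9 of 9 past the filter 2-fold or more lower in tumor lung over control lung (median -4.14) and 8 higher and 1 lower in tumor-exercise lung over tumor lung (median 3.37, and 2.77 with libraries scaled by their totals), against 25.7% of all rows lower in the first pair and 24.3% higher and 17.7% lower in the second. Cd74, the invariant chain, had 5069, 4748, 265 and 2107 reads. Per read of Cd74 the 9 identity genes had 0.25, 0.234, 0.121 and 0.113 reads, so that they were lower against Cd74 in both tumor libraries than in both others. The intervals of tumor lung (0.0809 to 0.175) and tumor-exercise lung (0.0984 to 0.129) overlapped.

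**Figure D5:**
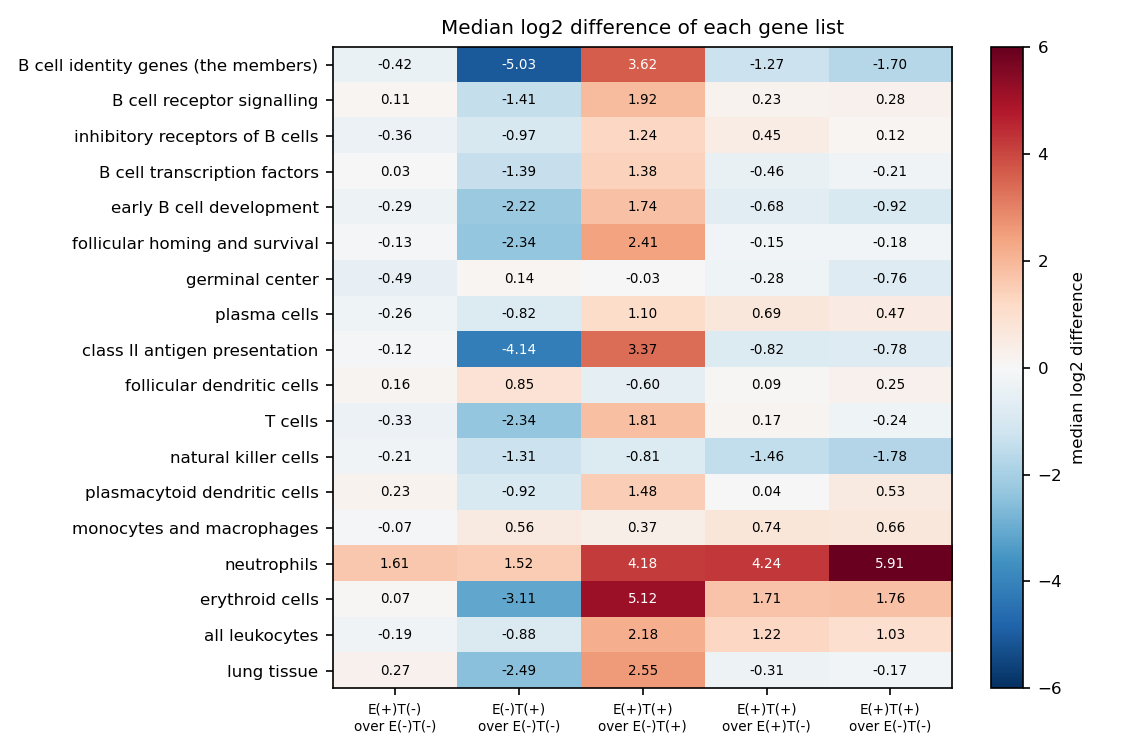
Median log2 difference of each gene list, over its genes past the filter, in the 5 comparisons, as colour and number. The B cell identity genes have the lowest median in tumor lung over control lung, -5.03, followed by class II antigen presentation at -4.14.

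Genes whose pattern over the 4 libraries was most like the median of the 9 genes were sought among the 11211 genes whose normalized counts averaged 50 or more. The nearest were Mfap4, Postn, Tppp, Ppp2r2c, Igfbp2, Dpp4, Mgl2, Calcrl, Kif26b and Enpep, with root mean square distances from 0.0446 to 0.152 on the log2 scale over 4 points. None of the 10 was on a list above, and 20 genes lay nearer to the median pattern than Cd79b, the nearest of the 9 genes, at 0.19. Mfap4, a matrix protein, had 537, 519, 16 and 107 reads in control lung, exercise lung, tumor lung and tumor-exercise lung. Calcrl, a receptor of endothelium, had 14162, 12593, 422 and 3435. The pattern was therefore found in genes outside the B cell lists too. The 9 genes themselves were spread, with Fcrla at 0.221, Fcer2a at 0.338, Blk at 0.722, Cd22 at 0.805, Cd79a at 1.13, Ms4a1 at 1.19, Pax5 at 1.64 and Cr2 at 1.73.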

How the data were processed

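Lung RNA of 4 groups was measured in 4 libraries, 1 per group. The authors prepared 3′ libraries (QuantSeq), aligned reads with Bowtie2 (build mm10 per the submitters' processing notes), counted them with bedtools and normalized them with edgeR (quantile method). Versions of these tools, the annotation and strand use are not given in the sources used here. Reads come from transcript ends, so length has little weight. The deposited values are log2(normalized count + 1), per the authors' files.

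Whole reads were recovered by inverting the quantile adjustment. The fitted dispersion was 0.372, 100% of values came back within 0.001, and 94.6% were resolved to 1 read. Python 3.11.15, numpy 2.4.6, scipy 1.17.1 and pandas 2.3.3 were used. Differences are of deposited log2 values and understate changes of low genes. The limit was 2-fold, and the filter a mean normalized count of at least 4 (15164 rows). Exact (Clopper-Pearson) 95% intervals of reads cover counting error alone. No test was made with 1 library per group. Scripts were tested on simulated data. The members and lists were chosen with earlier results of these data known.

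Every identity gene is named. Of each other list, the named genes were taken from those with the largest differences with normalized counts that averaged 50 or more, at most 4 a list. Prdm1, Xbp1, Tnfrsf17, Cd3d, Lck, Ptprc, Pecam1, Cd74, Sftpc, Scgb1a1 and the genes of the resting tumor library were chosen after their values were seen or as denominators. Spi1, Tcf3, Pirb and Fcgr2b were also named after their values were seen. Alternatives were other scalings, pseudocounts, filters and limits. Promoters came from RefSeq (GRCm38.p6), and gene positions from GENCODE on GRCm38. Protein sequences were not used here. Some genes of the lists are counted but not reported singly here.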

Additional observations from a re-analysis of the deposited data

Results flagged for a closer look

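In 4 of the 8 genes past the filter, the exercise difference had opposite signs with and without tumor, with both intervals clear of 0. The difference with tumor minus that without was 4.63 for Ms4a1, 5.32 for Blk, 5.46 for Cd22 and -2.99 for Cr2 on the log2 scale. The first 3 were lower with exercise in lungs without tumor and higher with exercise in lungs with tumor, and Cr2 was the reverse. Ms4a1 and Blk had 0 reads and Cd22 1 read in tumor lung, so the sizes depend on the pseudocount. They were 2.92, 3.49, 4.25 and -2.58 for Ms4a1, Blk, Cd22 and Cr2 with a pseudocount of 4, and 6.34, 7.07, 6.05 and -3.15 with 0.25. With 1 library per group the difference itself was not tested. The share of all rows that meet the same rule was not counted, so the 4 of 8 genes have no background beside them.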

How the results depend on the processing

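Of 30 gene differences past the 2-fold limit, 28 of the 8 genes past the filter and 2 of Pax5, which did not pass it, all 30 kept their sign under 3 other scalings and under pseudocounts of 0.25 and 4, and 27 stayed past the limit with a pseudocount of 4. Under a 4-fold limit the counts of genes past it became 0 higher without tumor and 0 lower with tumor for exercise, 3 lower for tumor with exercise, and 2 lower for tumor-exercise lung over control lung. Under a 1.5-fold limit 3 were lower with exercise without tumor. Shares of all rows past the 4-fold and 1.5-fold limits were not taken, so these counts cannot be set beside a background. With a filter of 50 the shares of all rows past the 2-fold limit, for exercise without tumor, were 1.98% higher and 0.9% lower. Without hemoglobin reads the 9 genes made up 113, 101 and 26.0 CPM in control lung, exercise lung and tumor-exercise lung. Counts that use exercise lung were the same after a share of the tumor lung level was taken off it, an alternative chosen after seeing the data. Genes at 0 to 4 reads in a library limit what depth can show. No paired analysis was possible because each group has 1 library, and no library could be left out.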

Other observations

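Other cells that carry or accompany B cell genes were read from further lists, as values with no explanation. Of all rows, 25.7% were 2-fold or more lower and 20.6% higher in tumor over control lung, 24.3% were higher and 17.7% lower in tumor-exercise over tumor lung, and 14.4% were lower in tumor-exercise over control lung. Of 8 genes of early B cell development past the filter, 7 were 2-fold or more lower and 1 higher in tumor over control lung (median -2.22), and 6 were higher and 2 lower in tumor-exercise over tumor lung (median 1.74). Vpreb3, a relative of the surrogate light chain, had 431, 154, 46 and 149 reads in control, exercise, tumor and tumor-exercise lung, so that it kept 46 reads where Cd79a had 0. Of 7 germinal center genes, 2 were lower and 1 higher in the first pair (median 0.14), and 3 were higher and 2 lower in tumor-exercise over tumor lung (median -0.03). Bcl6, the repressor of that stage, was one of the 2 that were lower and so went against the median, with 519, 341, 97 and 208 reads. Of 4 follicular dendritic cell genes, which include Cr2 and Cxcl13, 1 was lower and 2 were higher in the first pair (median 0.85), and 2 were lower in tumor-exercise over tumor lung (median -0.60). Of 9 natural killer cell genes, 6 were lower and 2 higher in tumor over control lung (median -1.31), 4 were lower and 1 higher in tumor-exercise over tumor lung (median -0.81), and 6 were lower in tumor-exercise over control lung (median -1.78). Of 8 plasmacytoid dendritic cell genes, 4 were lower in tumor over control lung (median -0.92) and 5 higher in tumor-exercise over tumor lung (median 1.48). Of 8 monocyte and macrophage genes, 1 was lower and 1 higher in tumor over control lung (median 0.56), and 2 were higher in tumor-exercise over tumor lung (median 0.37). With libraries scaled by their totals the medians in tumor-exercise over tumor lung were 1.23 for early B cell development, -0.64 for germinal center, -1.21 for follicular dendritic cells, -1.39 for natural killer cells, 0.97 for plasmacytoid dendritic cells and -0.23 for monocytes and macrophages, the last with its sign turned.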
